A study of Homo sapiens and Mus musculus with 7 samples.

Results

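The cytokine receptor genes IL6R, IL6ST, LIFR and GHR, the kinase gene JAK2, the transcription factor gene STAT3 and the inhibitor genes SOCS1, SOCS2, SOCS3 and CISH were read in cells and livers with less or no Fas (CD95), the death receptor on the cell surface that Fas ligand binds. A probe set, the group of short probes that measures a transcript on an Affymetrix array, was taken when the platform annotation gave it a single gene symbol and that symbol was 1 of these 10, in mouse with case ignored. The rule gave 37 of 54613 human probe sets, for 10 of 19773 genes, and 27 of 45037 mouse probe sets, for 9 of 18193 genes. IL6R had no mouse probe set under the rule, since the mouse gene is annotated as Il6ra. In the ovarian cancer cell line HeyA8, the groups were stable FAS knockdown by shRNA4, stable FAS knockdown by shRNA6, and a PLKO control that carries the lentiviral hairpin vector without a FAS hairpin. In the liver cancer cell line HepG2, the groups were stable FAS knockdown by shRNA6 and a PLKO control. In liver of male C57/BL6 mice aged 2 months, the groups were Fas knock-out (KO) and wild type (WT). Each of the 7 groups was 1 array of total RNA. The labels call the hairpin lines both knock-down and knock-out, and whether these lines are clones or pools, which Fas allele the KO mice carry and how many animals gave RNA is not stated in the labels.

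Cytokines of the IL6 family bind receptor chains such as IL6R or LIFR and signal with the shared chain gp130, the product of IL6ST. Growth hormone binds GHR. Both kinds of receptor lack a kinase of their own and use Janus kinases such as JAK2, which phosphorylate STAT factors, STAT3 mainly for IL6 and STAT5 for growth hormone. STATs then switch on genes that include SOCS1, SOCS2, SOCS3 and CISH, whose proteins dampen the same receptors: SOCS3 acts on gp130, SOCS1 on the kinases, and SOCS2 and CISH on growth hormone signalling. In liver, IL6 drives the acute phase proteins of blood plasma, and growth hormone drives Igf1 and, in mice, the sex differences of many liver enzymes.

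The STAT recognition motif TTCNNNGAA, which is its own reverse complement, was looked up in the 250 bases upstream of the annotated starts of these genes, as a description. RefSeq (GRCh38.p14) gave 21 such windows for 9 human members, and 4 windows of 3 members held the motif. Among the inhibitors only CISH had a match, since the SOCS1 and SOCS3 windows held none and SOCS2 had no window. The other GHR and LIFR windows held none either. The CISH window, chr3:50611775-50612024 on the minus strand, held 4 non-overlapping matches, which begin 241, 230, 129 and 112 bases before the start and are in capitals here. The GHR match (138 bases before the start, in chr5:42549830-42550079, plus strand) and the LIFR matches (182 bases before the start in chr5:38557468-38557717 and 165 bases before the start in chr5:38595406-38595655, both minus strand) are given with their flanks.
CISH promoter: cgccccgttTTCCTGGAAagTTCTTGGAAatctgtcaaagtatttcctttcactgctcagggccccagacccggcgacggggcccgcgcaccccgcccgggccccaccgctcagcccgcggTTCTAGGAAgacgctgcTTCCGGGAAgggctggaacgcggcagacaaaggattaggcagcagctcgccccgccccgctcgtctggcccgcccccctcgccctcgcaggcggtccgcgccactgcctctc
GHR promoter match: cttgtattgcTTCAAAGAAagtagaaagt
LIFR promoter match at 182 bases: gctttggagtTTCATCGAAaggtctttaa
LIFR promoter match at 165 bases: ccattactagTTCCTTGAAccacaatcca
Of 35116 promoter windows of the same length, 2306 (6.57%) held at least 1 match, 125 (0.356%) at least 2 and 5 (0.0142%) at least 4, the CISH window among them. A match is a description of these letters and says nothing of binding in these cells.

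Signals are MAS5 intensities on a linear scale, with medians from 58 to 63.5 on the human arrays and from 75.4 to 80.1 on the mouse arrays. A log2 ratio is the difference of log2(signal + c), with c at 12.6 in human and 20.5 in mouse, which understates the change of dim probe sets, and a probe set entered a comparison (was kept) if its signal exceeded the array median on at least 1 of the arrays compared. Bright means above the 75th percentile of at least 1 of these arrays. With 1 array per group no single comparison has a replicate check, so no p is given for them and probe sets are counted by size, at least 2-fold. The targeted gene was lower where the labels say so. The 4 kept FAS probe sets were at 41.9 to 56.3% of control in HeyA8 with shRNA4, 24.2 to 40.7% in HeyA8 with shRNA6 and 44.5 to 58.1% in HepG2 with shRNA6, and Fas was at 30.3% of WT in KO liver on 1 probe set. HepG2 and liver carried hepatocyte markers. All 7 hepatocyte markers with a probe set (ALB and others) were above the median on both HepG2 arrays, and 6 of 6 were above it on both liver arrays. Of 8 markers of an ovarian or mesenchymal cancer line, 7 were above the median on each HeyA8 array, but so were 6 with shRNA6 and 7 in the control of HepG2. Being above the median on this list thus does not set HeyA8 apart. By level, 4 of 7 tested were lower and 1 higher in HepG2 in the limma fit given below, against 24.5% lower and 25.1% higher over all probe sets.

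**Figure D1:**
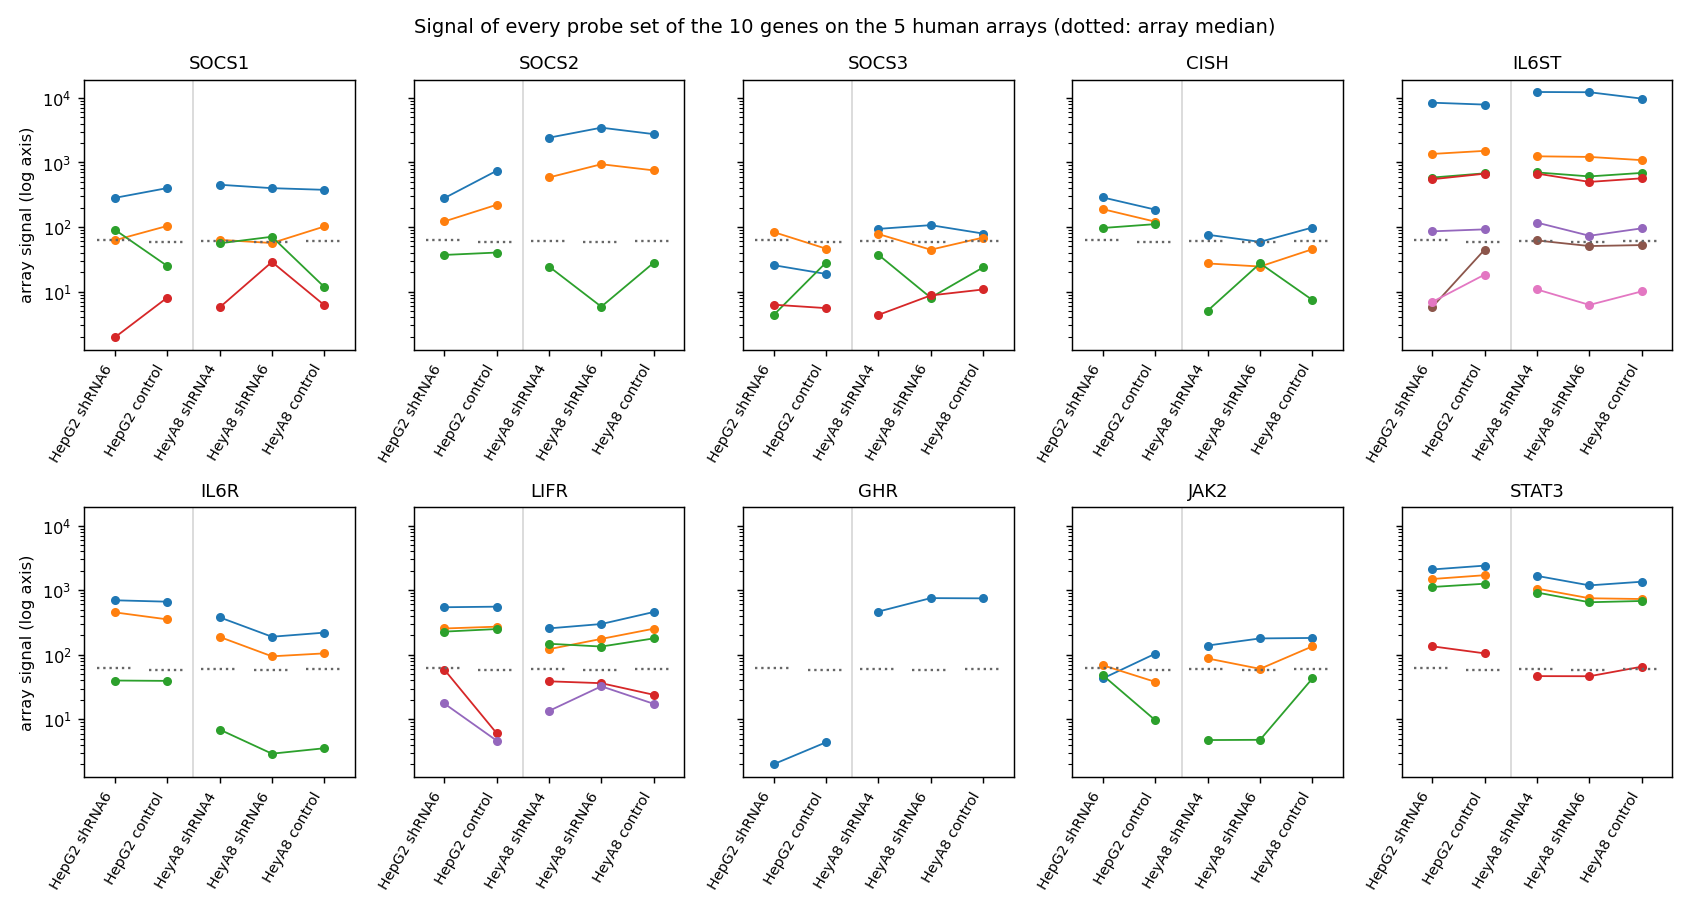
Signal of each probe set of the 10 genes on the 5 human arrays, on a log axis, with a panel for each gene, a line for each probe set and the array median dotted. The SOCS2 lines lie far lower on the HepG2 arrays than on the HeyA8 arrays, GHR is above the median on the HeyA8 arrays and below it on the HepG2 arrays, and SOCS1 holds probe sets that run in opposite directions.

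Few of these genes differed by 2-fold from their own control. In HeyA8 with shRNA4, 0 of 25 kept probe sets did, against 5.92% of all kept probe sets. In HeyA8 with shRNA6, 2 of 25 did, SOCS1 209999_x_at higher and JAK2 205841_at lower, against 5.06% of all. In HepG2 with shRNA6, 3 of 25 did, SOCS1 209999_x_at higher and SOCS2 203373_at and JAK2 205842_s_at lower, against 6.54% of all. In KO liver, 2 of 24 did, both of Il6st, with 1421239_at higher and 1437303_at lower, against 5.4% of all. The Il6st disagreement was known when these genes were chosen, so this count is a description. With counts of 0 to 3, these shares stand near the background. The median log2 ratio of the kept probe sets was 0.16 in HeyA8 with shRNA4, -0.18 in HeyA8 with shRNA6, -0.13 in HepG2 and -0.14 in KO liver, beside 0.01, -0.01, 0.00 and -0.03 over all kept probe sets. In KO liver 19 of the 24 lay below 0, but these include values as small as -0.02 (Ghr 1417962_s_at) and several probe sets of the same gene. Scaling the arrays to equal medians shifted the median over all kept mouse probe sets by 0.08. The share below 0 over all probe sets was not counted, so nothing is read from the 19. Both HeyA8 comparisons use the same control array, so their values are given side by side only.

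**Figure D2:**
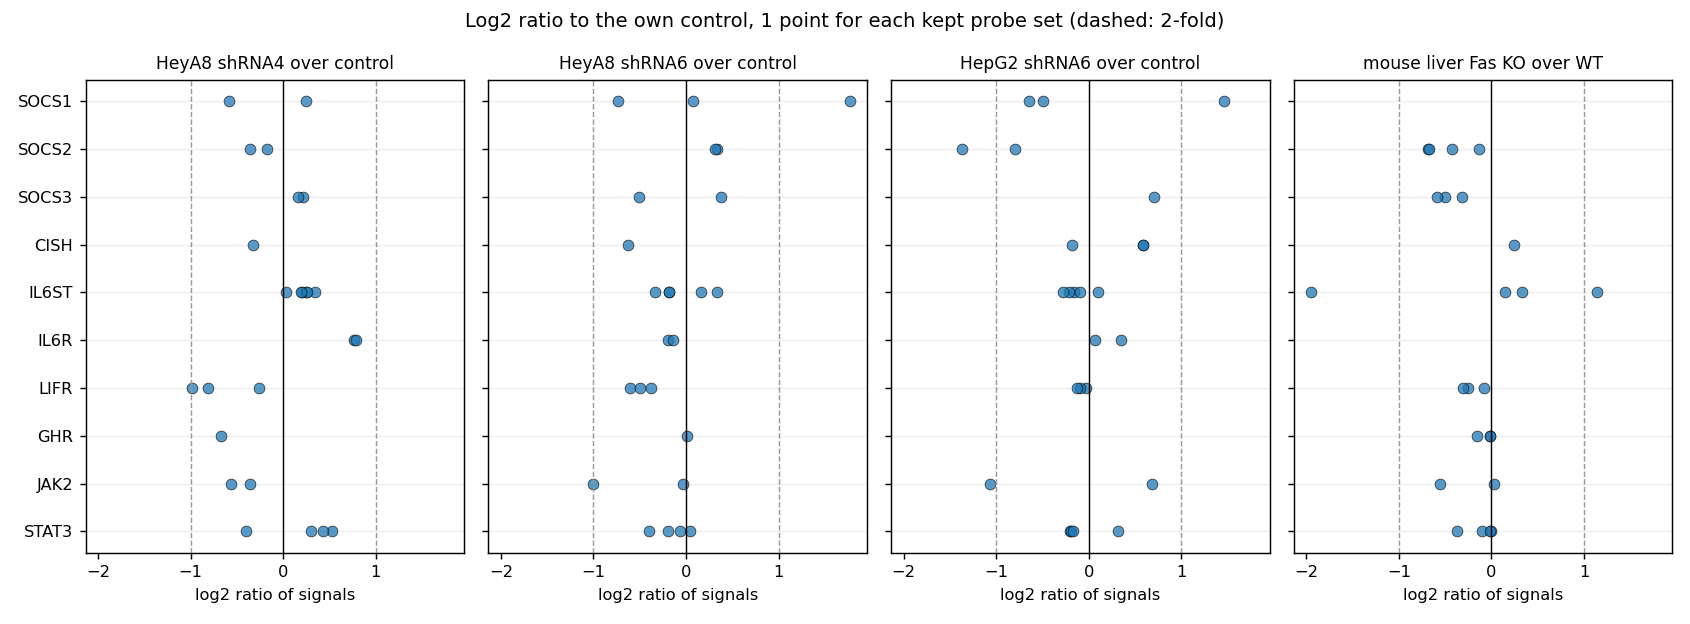
Log2 ratio to the own control (x axis) for each kept probe set of the 10 genes (rows), in the 4 comparisons, with dashed lines at 2-fold. Most points lie between the dashed lines, and the points of mouse Il6st lie on both sides, at -1.95 and 1.14.

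Among the receptors, IL6ST was bright in every system. Its leading human probe set 212195_at had signals of 12324 and 12225 in HeyA8 with shRNA4 and shRNA6, against 9733 in the HeyA8 control. In HepG2 it had 8416 with shRNA6, against 7868 in the control, and the log2 ratios were 0.34, 0.33 and 0.10. All 3 knockdown arrays were thus above their control on this probe set, by less than 1.5-fold. The other 3 bright probe sets did not share that pattern, and their log2 ratios ran from 0.03 to 0.24 with shRNA4, from -0.18 to 0.16 with shRNA6 and from -0.28 to -0.16 in HepG2. The dimmer 204864_s_at had log2 ratios of 0.26, -0.33 and -0.09, and 234967_at was above the median only in HeyA8 with shRNA4, at 62. The last IL6ST probe set, 234474_x_at, was below the median on all 5 arrays.

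In mouse liver the Il6st probe sets disagreed. On 1437303_at the signal was 1001 in KO liver, against 3938 in WT liver, or 25.4% of WT (log2 ratio -1.95). On 1452843_at it was 2229 in KO liver, against 2012 in WT liver (0.15), and on 1460295_s_at 799 against 632 (0.33). The dim 1421239_at had 80.5 in KO liver, against 25.4 in WT liver (1.14), and passed the filter on the KO array only. The 3 bright probe sets thus spanned 2.28 on the log2 scale, a disagreement that was known when these genes were chosen and is given as a description. Of 2449 genes with at least 2 bright probe sets in this comparison, 3 (0.122%) spanned as much, Il6st included, and the median span was 0.18. Which transcripts each probe set reads was not tested, since the probes could not be placed on the genome here.

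IL6R, the chain that binds IL6, differed between the hairpins. Probe set 226333_at had 380 in HeyA8 with shRNA4 and 190 with shRNA6, against 220 in the HeyA8 control, and 205945_at had 189 and 94.6, against 105. Both thus lay above the control with shRNA4 (log2 ratios 0.76 and 0.78) and slightly below it with shRNA6 (-0.20 and -0.14). In HepG2 with shRNA6 the signals were 697 and 453, against 663 and 353 in the control (0.07 and 0.35). The third IL6R probe set, 217489_s_at, was below the median on all 5 arrays. In liver, the mouse gene, named Il6ra and therefore outside the rule, had 1688 in KO liver, against 1727 in WT liver, on 1452416_at, and 470 against 453 on 1422270_a_at.

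LIFR, the receptor chain for leukaemia inhibitory factor, was lower in both HeyA8 knockdown arrays on all 3 of its kept probe sets. Probe set 225575_at had 256 and 299 in HeyA8 with shRNA4 and shRNA6, against 459 in the HeyA8 control, or log2 ratios of -0.81 and -0.60. Probe set 225571_at had 122 and 176, against 253 (-0.99 and -0.50), and 227771_at had 148 and 134, against 179 (-0.26 and -0.38). The first of these 3 probe sets was bright. None reached 2-fold on the log2(signal + c) scale, although the signal of 225571_at with shRNA4 was 48.1% of control. In HepG2 the knockdown and control arrays were close, with 544 against 555, 255 against 272 and 228 against 250 on the same probe sets (-0.03, -0.09 and -0.13). Probe sets 205876_at and 229185_at were below the median on all 5 arrays. In liver, Lifr had 11210 in KO liver, against 13308 in WT liver, on 1425107_a_at (-0.25), with 3944 against 4182 on 1454984_at (-0.08) and 157 against 200 on 1450207_at (-0.31).

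GHR, the growth hormone receptor, had a single human probe set, 205498_at. It had 466 in HeyA8 with shRNA4 and 753 with shRNA6, against 747 in the HeyA8 control (-0.67 and 0.01), so the hairpins differed. In HepG2 it had 2.02 with shRNA6, against 4.41 in the control, both below the array median, and no ratio is read from them. In mouse liver Ghr was bright and nearly equal between the genotypes, with 19726 in KO liver, against 20018 in WT liver, on 1417962_s_at, 13196 against 13336 on 1451501_a_at, and 1370 against 1526 on 1451871_a_at (-0.02, -0.02 and -0.15).

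JAK2, the kinase that GHR binds and that gp130 shares with JAK1 and TYK2, gave probe sets that disagreed in HepG2. Probe set 205842_s_at had 43.1 in HepG2 with shRNA6, against 104 in the control (-1.07), while 205841_at had 68.6 against 38 (0.68). In HeyA8, 205842_s_at had 139 and 179 with shRNA4 and shRNA6, against 182 in the control (-0.36 and -0.03), and 205841_at had 87.6 and 60.5, against 135 (-0.56 and -1.01). All these signals lay below the 75th percentile of their array, and the third probe set, 1562031_at, did not exceed the array median on any human array. In liver, Jak2 had 836 in KO liver, against 819 in WT liver, on 1421066_at (0.03), and 158 against 243 on 1421065_at (-0.56).

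STAT3, the factor that IL6 signalling activates, stayed within 1.5-fold of its control on all 4 human probe sets and all 4 mouse probe sets. Its brightest human probe set 208991_at had 1662 and 1186 in HeyA8 with shRNA4 and shRNA6, against 1351 in the HeyA8 control, and 2092 in HepG2 with shRNA6, against 2398 in the HepG2 control. The log2 ratios were 0.30, -0.19 and -0.20 on that probe set, 0.53, 0.04 and -0.19 on 208992_s_at, and 0.43, -0.06 and -0.17 on 225289_at. The 3 bright probe sets thus lay above the control with shRNA4 and below it in HepG2. The dimmer 243213_at had -0.40, -0.40 and 0.32. In liver, Stat3 had 2380 in KO liver, against 2547 in WT liver, on 1426587_a_at and 1753 in both livers on 1460700_at, with log2 ratios from -0.37 to 0.00 over its 4 probe sets.

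SOCS2, which dampens growth hormone signalling, was lower in HepG2 with shRNA6 and in KO liver. Its probe set 203373_at had 280 in HepG2 with shRNA6, against 743 in the HepG2 control, or 37.7% of it (log2 ratio -1.37), and 203372_s_at had 122 against 221, or 55.1% (-0.80). In KO liver 1449109_at had 2164, against 3506 in WT liver, or 61.7% of it (-0.69), and 1418507_s_at had 1185 against 1903, or 62.3% (-0.67). Both bright mouse probe sets thus gave nearly the same ratio, and the dimmer 1446085_at (215 against 296) and 1442586_at (209 against 230) were also lower in KO liver. In HeyA8, 203373_at had 2417 with shRNA4 and 3455 with shRNA6, against 2746 in the control (-0.18 and 0.33), and 203372_s_at had 586 and 939, against 754 (-0.36 and 0.31), so the hairpins lay on either side of the control. The human 232539_at and the mouse 1438470_at and 1441476_at were below the median on every array of their species.

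SOCS3, which binds gp130 and is induced through STAT3, was dim in the human lines. Probe set 227697_at had 93.7 and 107 in HeyA8 with shRNA4 and shRNA6, against 79.3 in the HeyA8 control (0.21 and 0.38), and was below the median in HepG2, with 25.7 against 18.8. Probe set 206360_s_at had 78 and 44.6 in HeyA8, against 68.7 (0.16 and -0.51), and 83.7 in HepG2 with shRNA6, against 46.3 (0.71). The remaining human probe sets, 214105_at and 206359_at, were below the median on all 5 arrays. In mouse liver Socs3 was bright and lower in KO liver on all 3 probe sets. Probe set 1455899_x_at had 2011 in KO liver, against 2847 in WT liver (-0.50), 1456212_x_at had 1209 against 1513 (-0.32), and 1416576_at had 445 against 679 (-0.59).

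SOCS1, an inhibitor of the Janus kinases, had kept probe sets that ran in opposite directions. On 209999_x_at all 3 knockdown arrays were above their control, with 56 and 70.8 in HeyA8 with shRNA4 and shRNA6, against 11.8 in the HeyA8 control, and 90.9 in HepG2 with shRNA6, against 25 in the HepG2 control. On 213337_s_at all 3 were below it, with 63.4 and 56.6, against 102, and 62.5, against 104. The log2 ratios were 1.49, 1.77 and 1.46 on the first and -0.59, -0.73 and -0.64 on the other. Both control signals on 209999_x_at were below the array median, as was the shRNA4 array. The brightest SOCS1 probe set, 210001_s_at, had 452 and 400, against 377, in HeyA8 and 283, against 401, in HepG2 (0.25, 0.08 and -0.49). Probe set 210000_s_at was below the median on all 5 arrays, and so was mouse Socs1 on both liver arrays, with 31.7 in KO liver, against 27.1 in WT liver.

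CISH, the inhibitor whose promoter is printed above, was lower in the HeyA8 knockdown arrays and higher in the HepG2 one on its brightest probe set. That probe set, 223377_x_at, had 76 and 59 in HeyA8 with shRNA4 and shRNA6, against 98.4 in the HeyA8 control (-0.33 and -0.63), and 287 in HepG2 with shRNA6, against 186 in the HepG2 control (0.59). In HepG2, 221223_x_at gave the same ratio (189 against 121, 0.59) and 223961_s_at had 96.8 against 111 (-0.18), and both were below the median on the HeyA8 arrays. In liver, Cish had 1176 in KO liver, against 990 in WT liver (0.24). Cish thus lay above its WT value where Socs2 and Socs3 lay below theirs.

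**Figure D3:**
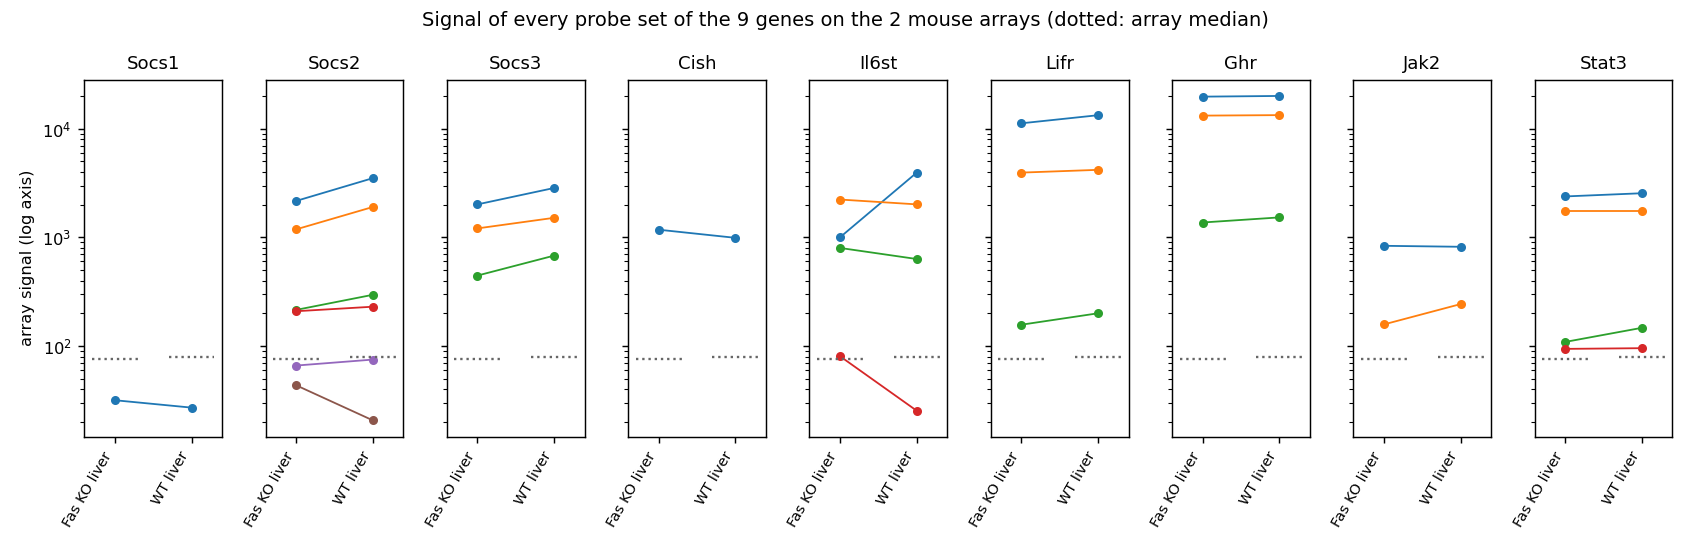
Signal of each probe set of the 9 mouse genes on the Fas KO and WT liver arrays, on a log axis, with a panel for each gene, a line for each probe set and the array median dotted. The lines of Socs2 and Socs3 above the median slope to lower values in KO liver, the Ghr lines are flat, and an Il6st line at 1001 in KO liver, against 3938 in WT liver, runs against the others.

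The filter lets a probe set in through its higher array, so counts were also taken over probe sets above the median on both arrays. At least 2-fold apart were 0 of 23 member probe sets in HeyA8 with shRNA4, 1 of 21 with shRNA6 (JAK2), 1 of 20 in HepG2 (SOCS2) and 1 of 23 in KO liver (Il6st), against 1.13%, 0.635%, 1.13% and 0.796% of all such probe sets. The Il6st disagreement was known when these genes were chosen. Il6st is therefore counted here and below as a description only, and nothing is read from it. At least 1.5-fold lower were 4 of 23 member probe sets in HeyA8 with shRNA4, 3 of 21 with shRNA6, 2 of 20 in HepG2 and 4 of 23 in KO liver, against 4.95%, 3.98%, 3.18% and 4.77% of all such probe sets. At least 1.5-fold higher were 2, 0, 2 and 0, against 3.08%, 1.75%, 4.23% and 2%. The 4 lower with shRNA4 were SOCS1 213337_s_at, GHR 205498_at and LIFR 225575_at and 225571_at. The 3 lower with shRNA6 were LIFR 225575_at, JAK2 205841_at and CISH 223377_x_at. Both higher with shRNA4 were of IL6R, both lower in HepG2 of SOCS2 and both higher in HepG2 of CISH. The 4 in KO liver were the bright Socs2 pair, Il6st 1437303_at and Socs3 1416576_at, so they stand for 3 genes. Several counts thus rest on 1 gene, and nothing is read from them against the shares of all probe sets.

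A common effect of FAS knockdown over the 5 human arrays was tested with limma, with the cell line as a second term. No probe set passed Benjamini-Hochberg adjustment, 0 of 28 kept member probe sets and 0% of 34288 in all, while 1421 (4.14%) had an unadjusted p below 0.05, among them 2 of the members. These were SOCS1 209999_x_at, at 1.56 ± 0.43 (SE, log2, 5 arrays; limma adjusted p = 0.993) and IL6ST 212195_at, at 0.23 ± 0.09 (limma adjusted p = 0.993), higher in 3 of 3 knockdown arrays. The SOCS1 probe set entered the fit only through 2 knockdown arrays, so the filter favoured a higher value there. SOCS1 213337_s_at was at -0.65 ± 0.32 (limma adjusted p = 0.993), and LIFR 225575_at at -0.41 ± 0.20. These errors rest on 2 residual degrees of freedom, made of the hairpin difference in HeyA8 and the difference of the effect between the lines. They also draw on the variance of other probe sets through limma, with a median of 6.45 prior degrees of freedom. The spread between these samples may be technical. Leaving out HeyA8 shRNA4 gave 5 called probe sets in all, and leaving out HeyA8 shRNA6 gave 8, with 0 of them members in either case.

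More of these probe sets differed between the lines than between knockdown and control. In the same limma fit, 16 of 28 member probe sets differed between HepG2 and HeyA8, 10 higher and 6 lower in HepG2, against 49.7% of all 34288, with 25.1% higher and 24.5% lower. The members' share was 57.1%, near that background. GHR 205498_at, SOCS3 227697_at, CISH 221223_x_at and CISH 223961_s_at were kept only through the line where they were higher. The filter thus favoured a call for these. SOCS2 was lower in HepG2, at -2.69 ± 0.29 on 203373_at (log2, SE, 5 arrays; limma adjusted p = 8.27e-05) and -2.16 ± 0.25 on 203372_s_at (limma adjusted p = 1.27e-04). GHR 205498_at passed as lower in HepG2 (limma adjusted p = 9.36e-07), but both HepG2 signals are below the median. It was kept only through the HeyA8 arrays and its fitted value depends on the pseudocount, so no size is read from it. IL6R was higher in HepG2, by 1.42 ± 0.27 on 226333_at (limma adjusted p = 0.00224) and 1.65 ± 0.29 on 205945_at. CISH was higher on 223377_x_at, by 1.45 ± 0.32 (limma adjusted p = 0.00475). Its probe sets 221223_x_at and 223961_s_at also passed (limma adjusted p = 0.00435 and 0.00871), but they were kept only through the HepG2 arrays, so no size is read from them. Thus the inhibitors SOCS2 and CISH, both linked to growth hormone signalling, stood in opposite order in the lines.

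STAT3 was higher in HepG2 on all 4 probe sets, with 208992_s_at at 0.94 ± 0.18 (limma adjusted p = 0.00242), 208991_at at 0.68 ± 0.16, 225289_at at 0.68 ± 0.18 and the dim 243213_at nearest to the threshold (limma adjusted p = 0.0373). LIFR was higher on 225575_at (0.65 ± 0.20, limma adjusted p = 0.0232), while 227771_at and 225571_at missed the threshold at 0.56 ± 0.21 and 0.47 ± 0.25. SOCS3 227697_at passed as lower in HepG2 (limma adjusted p = 0.0078), but it was kept only through the HeyA8 arrays, so no size is read from it. JAK2 205842_s_at was lower in HepG2 (-1.24 ± 0.30, limma adjusted p = 0.00864), and IL6ST 212195_at by a smaller margin (-0.44 ± 0.09, limma adjusted p = 0.0039). The next brightest IL6ST probe set, 212196_at, lay in the other direction and did not pass (0.28 ± 0.13, limma adjusted p = 0.0984). The remaining IL6ST probe sets, SOCS1, SOCS3 206360_s_at and JAK2 205841_at did not pass either. Without the HepG2 shRNA6 array 5 of the 16 passed, SOCS2 on both probe sets, GHR, IL6R 226333_at and STAT3 208992_s_at. HepG2 was represented by 2 arrays and HeyA8 by 3.

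**Figure D4:**
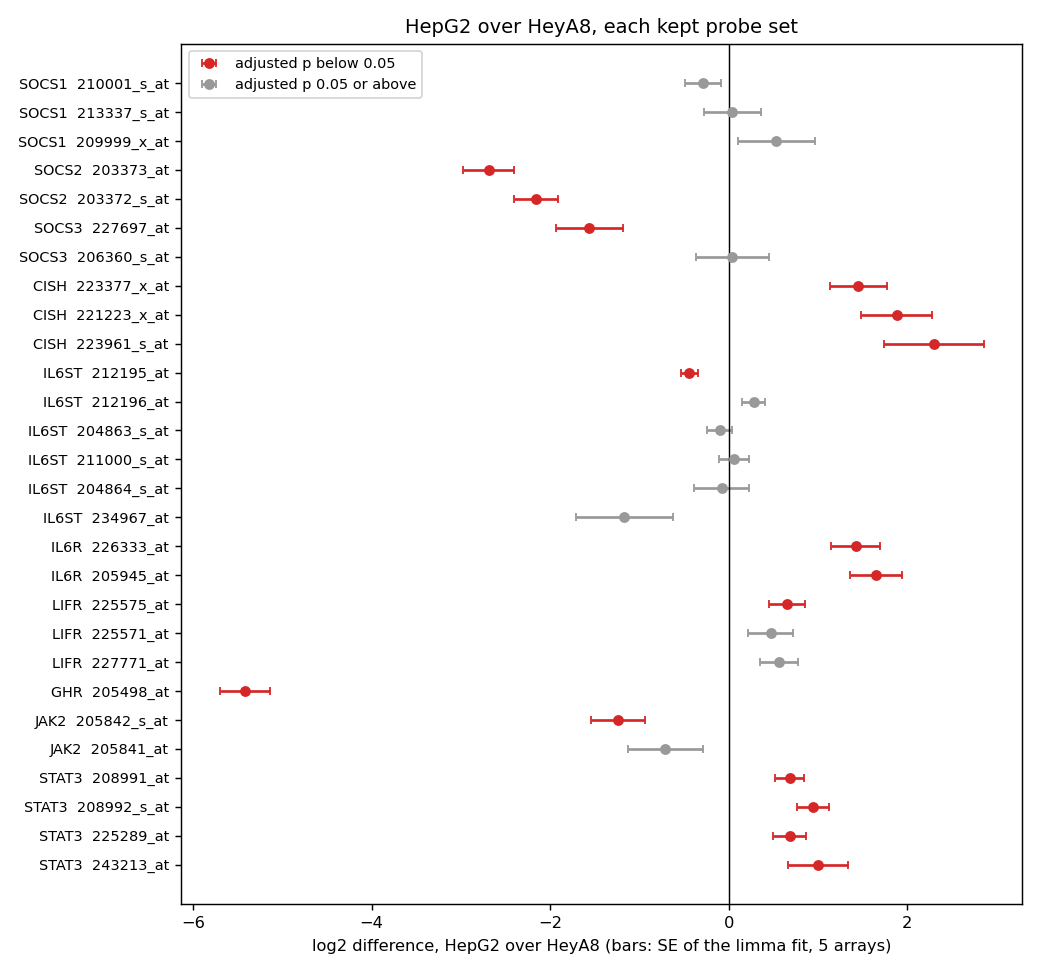
Log2 difference of HepG2 over HeyA8 for each kept probe set of the 10 genes (rows), with bars for the SE of the limma fit on 5 arrays and red points for an adjusted p below 0.05. GHR, kept only through the HeyA8 arrays, and SOCS2 at -2.69 and -2.16 lie on the left, and CISH, IL6R and STAT3 lie on the right.

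Other genes of the pathway were read from lists, with each gene on its brightest probe set. An _x_at probe set was taken only where the gene had no other. In KO liver the median of the STAT3-responsive regulators lay below that of all kept genes. Of 12 listed genes 11 were kept, 10 lay below 0 and the median log2 ratio was -0.26, against -0.02 over all kept genes. The 10 include values as small as -0.03. The share of all genes below 0 was not counted. Nothing is therefore read from counts below 0, here or for the other lists and comparisons. Of the 11 kept genes, 1 was at least 2-fold lower, against 4.34% of all genes in either direction. Myc, a growth regulator, had 861 in KO liver, against 1934 in WT liver (-1.15). Junb, an AP-1 subunit, had 361 against 670 (-0.86), and Bcl6, a repressor that growth hormone also controls, had 424 against 778 (-0.85). Markers of Kupffer and other myeloid cells were lower too, with 7 of 7 below 0 and a summed signal of 12916 in KO liver, against 16900 in WT liver (Csf1r 5809 against 8109). Sinusoidal endothelial markers were below 0 in 4 of 5, with a sum of 9209 in KO liver, against 9567 in WT liver. Hepatocyte markers summed to 176207 in KO liver, against 172250 in WT liver, and T and B cell markers were below the median on both arrays (179 against 188). Stellate markers were below 0 in 4 of 5, with a sum of 14108 in KO liver, against 15246 in WT liver. Of 4 dim biliary markers, 3 were kept, 2 of them at least 2-fold lower and 1 higher, with a sum of 211 in KO liver, against 379 in WT liver. Each of the 3 was above the median on its higher array only, as the filter allows, so nothing is read from these biliary values. The part of these cells in the lower values of Socs2, Socs3 and the STAT3-responsive genes was not tested, and in tissue RNA fewer cells of a type and less RNA per cell cannot be told apart.

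The acute phase proteins, the plasma proteins that IL6 induces in liver, were near their WT values in KO liver. Of 19 kept genes, 8 lay above and 11 below 0, none reached 2-fold and the median was -0.05. The named ones were all lower, Orm2 at 486 in KO liver, against 794 in WT liver (-0.68), Saa2 at 1736 against 2226 (-0.36) and Hamp at 21282 against 25431 (-0.26). Of 8 growth hormone responsive genes none reached 2-fold, and the median was -0.15. Besides Bcl6, Igfbp3 had 1219 in KO liver, against 1589 in WT liver (-0.38), and Cux2 403 against 496 (-0.28). Igf1, the main growth hormone target and picked here after its values were seen, had 18688 against 18622 (0.01). Thus Igf1 and Ghr were nearly equal between the livers where Socs2 was at 61.7% of WT.

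**Figure D5:**
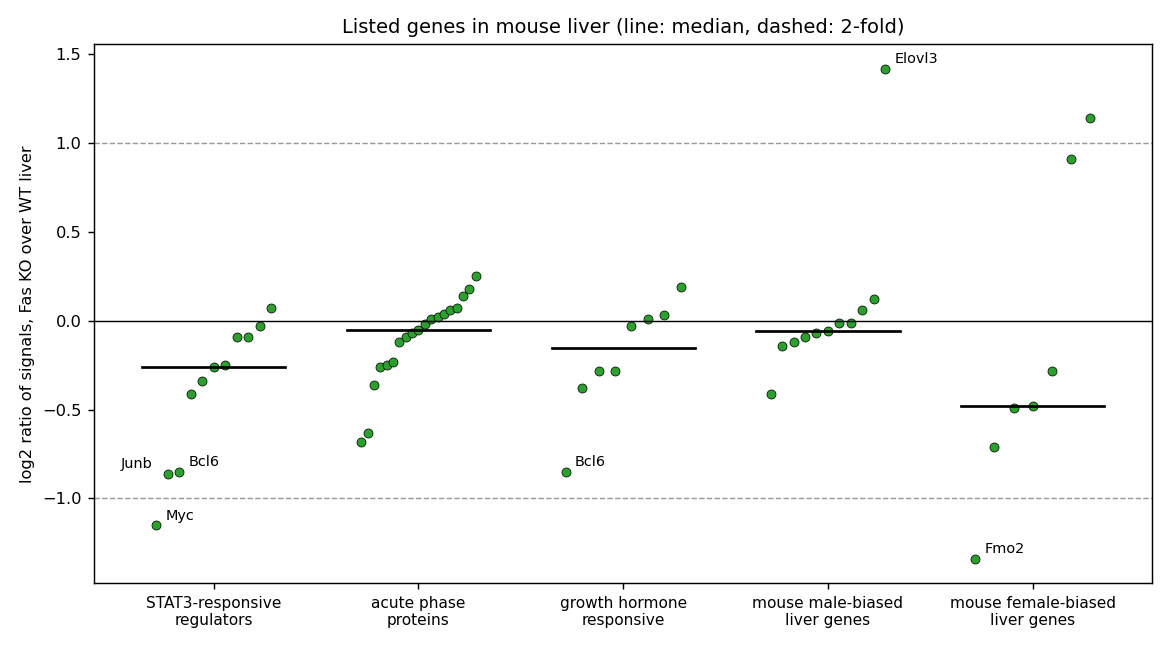
Log2 ratio of Fas KO over WT liver (y axis) for each kept gene of 5 lists (x axis), with the list median as a line and 2-fold dashed. The STAT3-responsive genes lie mostly below 0, with Myc at -1.15, the acute phase proteins lie around 0, and Elovl3 at 1.42 and Fmo2 at -1.34 stand apart in the sex-biased lists.

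Sex-biased liver genes, which growth hormone pulses set in mice, were listed for the male animals. Of 11 kept male-biased genes 8 lay below 0 and the median was -0.06, and 1 reached 2-fold, the fatty acid elongase Elovl3, at 7609 in KO liver, against 2828 in WT liver (1.42). Ugt2b38 had 4461 against 5950 (-0.41) and the cytochrome Cyp2d9 23656 against 26071 (-0.14). Of 7 kept female-biased genes 5 lay below 0 and the median was -0.48. The flavin monooxygenase Fmo2 had 222 in KO liver, against 594 in WT liver (-1.34), Abcd2 261 against 439 (-0.71) and Acot3 662 against 936 (-0.49). The dim Cyp2b9, outside the rule for named genes, was at least 2-fold higher, with 137 against 51.2 (1.14). Cyp2b9 was above the median on the KO array only. The male-biased median was thus near the -0.02 over all kept genes, and the female-biased median lay below it. The share of all genes below 0 was not counted, so nothing is read from the 8 and the 5. Elovl3 and Cyp2b9 were at least 2-fold higher and Fmo2 at least 2-fold lower, against 4.34% of all genes in either direction.

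Among kinases and factors beside JAK2 and STAT3, none of 6 kept genes reached 2-fold in KO liver, with Tyk2 at 230, against 392 in WT liver (-0.72), Jak1 at 2147 against 2622 (-0.29) and Stat5b at 658 against 722 (-0.13). Among phosphatases, PIAS proteins and adaptors, which curb or link the pathway, 9 of 14 lay below 0 and none reached 2-fold. Nothing is read from the 9, since the share of all genes below 0 was not counted. Ptpn2 had 1405 in KO liver, against 1872 in WT liver (-0.41), Pias2 589 against 760 (-0.36) and Pias1 560 against 718 (-0.35). Of the other SOCS genes none of 4 reached 2-fold (Socs4 966 against 1132, -0.23). Of the IL6-family ligands and receptors 4 were kept, and the dim ligand genes Lif (17.8 in KO liver, against 100 in WT liver) and Clcf1 (39.7 against 120), both outside the rule for named genes, were at least 2-fold lower, against 4.34% of all genes in either direction. Both were above the median in WT liver only, as the filter allows, so nothing is read from this count. Ctf1, another ligand of the family, had 499 against 411 (0.27). Of 5 kept type I cytokine receptors 1 was at least 2-fold lower, the dim Csf3r, the receptor gene for granulocyte colony-stimulating factor (46.9 against 193), also outside the rule and above the median in WT liver only.

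In HepG2 with shRNA6, the STAT3-responsive list had 8 of 10 kept genes below 0 and a median of -0.10, against -0.01 over all kept genes. As in KO liver, nothing is read from the counts below 0. TIMP1, a metalloproteinase inhibitor, had 688 with shRNA6, against 1277 in the HepG2 control (-0.88), CEBPB 7049 against 8411 (-0.25) and PIM1 546 against 627 (-0.19). JUNB, too dim for the rule and above the median in the control only, had 47.1 against 177 (-1.67), the single gene of the list at least 2-fold apart, against 5.22% of all genes. Acute phase genes gave a median of 0.08 over 11, with FGB, a fibrinogen chain, at 12105 with shRNA6, against 5792 in the control (1.06), SERPINA3 at 6344 against 10793 (-0.77) and HPX at 386 against 593 (-0.60). Of 6 kept IL6-family genes 5 lay below 0, with a median of -0.53. Of these, the ligand gene IL11, too dim for the rule, was at least 2-fold lower (75.5 against 239), and the bright oncostatin M receptor OSMR had 3441 against 3283 (0.07). Of 7 growth hormone responsive genes 1 was at least 2-fold higher and 2 lower, all outside the rule, CUX2 (82.2 against 12.1), IGFALS (40.9 against 99) and IGFBP3 (11.6 against 63). Each of the 3 was above the median on its higher array only, so nothing is read from this count. The corticosteroid carrier gene SERPINA6 had 6554 with shRNA6, against 4466 in the control (0.55).

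In HeyA8, IGFBP3, which encodes the main carrier of insulin-like growth factors, was higher with both hairpins, at 16926 with shRNA4 and 11837 with shRNA6, against 7340 in the HeyA8 control (1.20 and 0.69). It was the single gene of the growth hormone list at least 2-fold apart with shRNA4, against 4.76% of all genes, and none was with shRNA6, against 4.22%. The STAT3-responsive list had medians of -0.16 with shRNA4 and -0.32 with shRNA6, and none of its 11 kept genes reached 2-fold. BCL6 had 700 and 746, against 945 (-0.43 and -0.34), CEBPD 1031 and 661, against 864 (0.25 and -0.38), MYC 15651 and 14229, against 12459 (0.33 and 0.19), and NNMT 2984 with shRNA6, against 3928 (-0.39). OSMR had 1298 and 1785, against 1625 (-0.32 and 0.13), JAK1 6796 and 6448, against 6544, and SOCS6 327 and 378, against 420. None of the kept genes among the other SOCS genes, the kinases and STATs, the IL6 family, the other receptors or the phosphatases and adaptors reached 2-fold with either hairpin.

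Between the lines, all 11 kept acute phase genes were higher in HepG2 in the limma fit, beside 7 of 7 hepatocyte markers, but of these only HPX, FGL1 and the markers TTR, CPS1 and APOB were above the median on any HeyA8 array, so the others entered through HepG2 and the filter largely set these counts. Of the 11 STAT3-responsive genes 6 were lower and 1 higher in HepG2, and of 7 other type I cytokine receptors 5 were higher and 1 lower, against 24.5% lower and 25.1% higher over all probe sets. The receptor genes PRLR, CSF3R and IL2RG were kept only through HepG2, and the receptor gene IL7R and the STAT3-responsive NNMT only through HeyA8. All 5 are named for the filter only. The filter thus partly set the receptor counts, and nothing is read from these. Of 6 other kinases and STATs 3 were lower and 0 higher. The 4 log2 ratios were also compared between genes kept in all 4 comparisons, on the same choice of probe set as for the lists. The genes nearest to SOCS2 were CLMN, TACC1 and HDAC7, at Euclidean distances of 0.45, 0.58 and 0.61 among 7739 genes. SOCS2 was picked for this after its values were seen, and the distance describes 4 comparisons only.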

How the data were processed

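The intensities used here are linear and were deposited after MAS5, which the submitters' processing notes name with no version or settings. RNA was extracted with a Qiagen kit, per the labels' protocols. Control probe sets were left out (62 human, 64 mouse). Gene symbols came from the platform annotation, which can be old, and 41091 human and 34945 mouse probe sets had 1 symbol.

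Ratios were taken of log2(signal + c), with c at the 25th percentile of each table. The 4 single comparisons had 1 array per group and were not tested. The 5 human arrays were fitted with limma 3.58.1 in R 4.3.3 on cell line and knockdown, with a trended variance and Benjamini-Hochberg adjustment over 34288 probe sets, a call being an adjusted p below 0.05; the fit was tested on simulated data. The median prior degrees of freedom were 6.45. The number of arrays limits the precision.

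All 10 members were named with every probe set. Of each list at most 3 genes were named per comparison, the bright ones with the largest ratio, and BCL6, CUX2 and PRLR stand in more than 1 list. The nearest genes were to be named for members at least 2-fold in more than 1 comparison on their brightest probe set that is not _x_at, and no member was. The members and lists were chosen with earlier results of these data known. Alternatives were other pseudocounts, scalings, filters, probe set rules and fold sizes, no variance trend, no second term, and leaving out each array. Other steps used Python 3.11.15.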

Additional observations from a re-analysis of the deposited data

Results flagged for a closer look

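On 6 of the 22 member probe sets kept in all 3 human comparisons, both HeyA8 hairpins lay on one side of their control and HepG2 with shRNA6 on the other, as did 7891 of 24454 probe sets (32.3%) over the whole array. The log2 ratios, in the order HeyA8 shRNA4, HeyA8 shRNA6 and HepG2 shRNA6, were -0.56, -1.01 and 0.68 on JAK2 205841_at and -0.33, -0.63 and 0.59 on CISH 223377_x_at. They were 0.25, 0.08 and -0.49 on SOCS1 210001_s_at and 0.20, 0.16 and -0.16 on IL6ST 212196_at. STAT3 had 0.53, 0.04 and -0.19 on 208992_s_at and -0.40, -0.40 and 0.32 on 243213_at. The difference between the lines was not tested in any of them, and both HeyA8 values share a control array.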

How the results depend on the processing

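The counts of members at least 2-fold apart from their control are small and moved with most settings. In HeyA8 with shRNA4 the count was 0, and it was 1 with a pseudocount of 1, 2 with no filter and 6 at 1.5-fold. In HeyA8 with shRNA6 it was 2, and it was 0 with the pseudocount at the median, 1 after quantile normalization or with equal medians, 5 with no filter, 0 with a filter at the 75th percentile, 1 without _x_at and _s_at probe sets, 0 with 1 probe set per gene, 5 at 1.5-fold and 1 at 3-fold. In HepG2 it was 3, and it was 1 with the pseudocount at the median, 7 with no filter, 1 with the 75th percentile, 1 without _x_at and _s_at probe sets, 9 at 1.5-fold and 0 at 3-fold. In KO liver it was 2, and it was 1 with the pseudocount at the median, with the 75th percentile, with 1 probe set per gene and at 3-fold, and 5 at 1.5-fold. SOCS1 209999_x_at in HeyA8 with shRNA6 was at 1.77, and at 2.49 with a pseudocount of 1 and 0.86 with it at the median; in HepG2 it was at 0.83 in place of 1.46 with it at the median. Il6st 1421239_at was at 1.62 and 0.62 under those settings in place of 1.14. Of 643 recomputed ratios of single comparisons, 638 moved by less than the SD over all probe sets of the comparison, and no 2-fold difference changed sign.

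In the limma fit the common effect of knockdown called 0 probe sets, and 0 to 8 when each array was left out. Between HepG2 and HeyA8, 17024 probe sets were called, 8079 with 1 probe set per gene (fewer were tested), and 10604 to 17251 when each array was left out. Of members 16 were called, 10 with the 75th percentile, 9 with 1 probe set per gene (fewer were tested), and 5 to 15 when each array was left out. SOCS2 on both probe sets, GHR and IL6R 226333_at stayed called under every alternative that tested them. Over single probe sets and settings, 327 values kept their side of the threshold, 29 lost the call and 4 gained it, and none reversed. With equal medians, the median log2 ratio over all kept probe sets shifted by -0.11 in HepG2 and by 0.08 in KO liver. No paired analysis was possible because each group held 1 array. The limits are the 1 array per group, the shared HeyA8 control, the unknown placement of the probes and the dim signals of SOCS1, SOCS3 and JAK2 in the human lines.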
